A study of Rattus norvegicus with 31 samples.

Results

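MHC class II molecules display peptides from internalised material to CD4 T cells. Each is a pair of an alpha and a beta chain that the invariant chain, Cd74, escorts out of the endoplasmic reticulum, after which the DM pair helps to exchange the invariant chain's remnant for peptide. In blood, B cells carry class II at all times and monocytes and dendritic cells carry it too, and transcription of the whole group depends on the coactivator Ciita, which is recruited by factors bound to conserved promoter boxes. The genes described here are the rat class II chains RT1-Da and RT1-Db1 (counterparts of human HLA-DR) and RT1-Ba and RT1-Bb (counterparts of HLA-DQ), the peptide loading chains RT1-DMa and RT1-DMb, Cd74 and Ciita. They were chosen by measured values of these arrays, namely their correlation from array to array and the separate ranges of RT1-Ba, so both are given as a description. Their probes were taken by gene name among the probes that are not controls, and 7 of the 8 genes had at least 1 probe, 12 probes in all. RT1-DMb had none on this array. The 7 genes are among 22325 features that could be tested. A feature was 1 probe per gene symbol, or a single probe where no symbol was known.

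RNA of PBMC, a preparation of blood that holds lymphocytes and monocytes, was taken from adult rats and run on 1 two-colour array per sample. The CR-L group (13 arrays) were offspring of dams whose calories were cut by 20% on days 1 to 12 of pregnancy, and the pups received leptin, a hormone of fat tissue that is also present in milk, until postnatal day 21, at daily doses of 1.0 rising to 43.8 ng, 5 times the intake from milk. The CR group (11 arrays) were offspring of dams restricted in the same way and suckled without leptin. The WT group (7 arrays) were the controls, from unrestricted dams and normal lactation; "WT" is the name in the sample titles. All had 4 months of free access to chow before blood was taken. The 31 samples came from at most 16 mated rats, so some share a dam. No strain, and for single samples neither litter nor sex, is given in the sources used here, and the p-values may therefore be too small. Each value is a log2 ratio of the sample (red dye) over a pool of 5 samples per group (green dye). A value of 0 is the level of the pool as set by normalization within each array. Across arrays the median red intensity was 69.8 to 235, with 57.5% to 83.6% of red spots well above background. Whether any member probe was saturated is not reported here. In blood, fewer cells of a type and less RNA per cell cannot be told apart, and on an array a smaller amount of transcript and a poorer match to a probe's 60 bases cannot be told apart.

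The RT1-Ba probes are shown first, because one of them had the widest empty stretch between arrays among the member probes. Both cover the same stretch of the alpha chain message and differ in letters. The first, A_44_P128248, lies at chr20:4700973-4701032 on the plus strand of build rn4, as the files give it. The second, A_44_P194167, has no rn4 position in the files. Capitals mark the letters that differ.
RT1-Ba A_44_P128248: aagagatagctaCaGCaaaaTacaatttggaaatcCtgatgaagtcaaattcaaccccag
RT1-Ba A_44_P194167: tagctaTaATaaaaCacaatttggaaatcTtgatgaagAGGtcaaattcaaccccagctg
Over the 54 aligned bases there were 5 substitutions, C13T, G15A, C16T, T21C and C36T, with positions counted from 1 at the 5′ end of A_44_P128248 and the base of A_44_P128248 first. A further 3 bases of A_44_P194167, after position 44 of the other probe, have no partner in it. The files say neither which exon a probe lies in nor whether it is coding, and no rn4 annotation was used here.

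On A_44_P194167 the animals fell into ranges that did not touch. The CR-L arrays ranged from -2.27 to 1.92 with a median of -1.95, the CR arrays from -2.16 to 1.51 with a median of -1.78, and the WT arrays from -2.22 to 1.93 with a median of -1.66. The upper range held CR-L replicate 4 (1.92), CR replicates 1 and 2 (1.28 and 1.51) and WT replicates 4 and 7 (1.93 and 1.76), while the other 26 arrays lay between -2.27 and -1.46. The empty stretch between the ranges was 2.73 wide, 65.2% of the whole span, and each group had arrays on both sides of it. The upper range thus held 1 of 13 CR-L, 2 of 11 CR and 2 of 7 WT arrays, from 4 of the 8 slides. These counts describe the arrays, and the choice of RT1-Ba for its ranges allows no test of them. Green log2 intensity of the probe, which is the pool on every array, stayed between 7.84 and 8.40, while red log2 intensity spanned 6.35 to 11.19. Red was well above background on 26 of 31 arrays, and was near background on the others. Of 26716 probes, 19 had a wider empty stretch and 3 of those had at least 4 arrays on each side.

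The other probe, A_44_P128248, gave almost no signal. Its red intensity was well above background on 3 arrays, raw red lay between 34.9 and 146, and it did not pass the filter on dim probes. Its log2 ratios ran from -0.41 to 0.0040 in CR-L, from -0.32 to 0.0080 in CR and from -0.18 to 0.21 in WT. The arrays of the upper range on A_44_P194167 were spread over A_44_P128248, with -0.22 in CR-L replicate 4, -0.20 and -0.17 in CR replicates 1 and 2, and 0.21 and -0.13 in WT replicates 4 and 7. WT replicate 4 was the highest of all arrays on A_44_P128248, at a raw red intensity of 52.3, and the other 4 lay among the rest. The pattern of RT1-Ba therefore rests on a single probe.

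**Figure D1:**
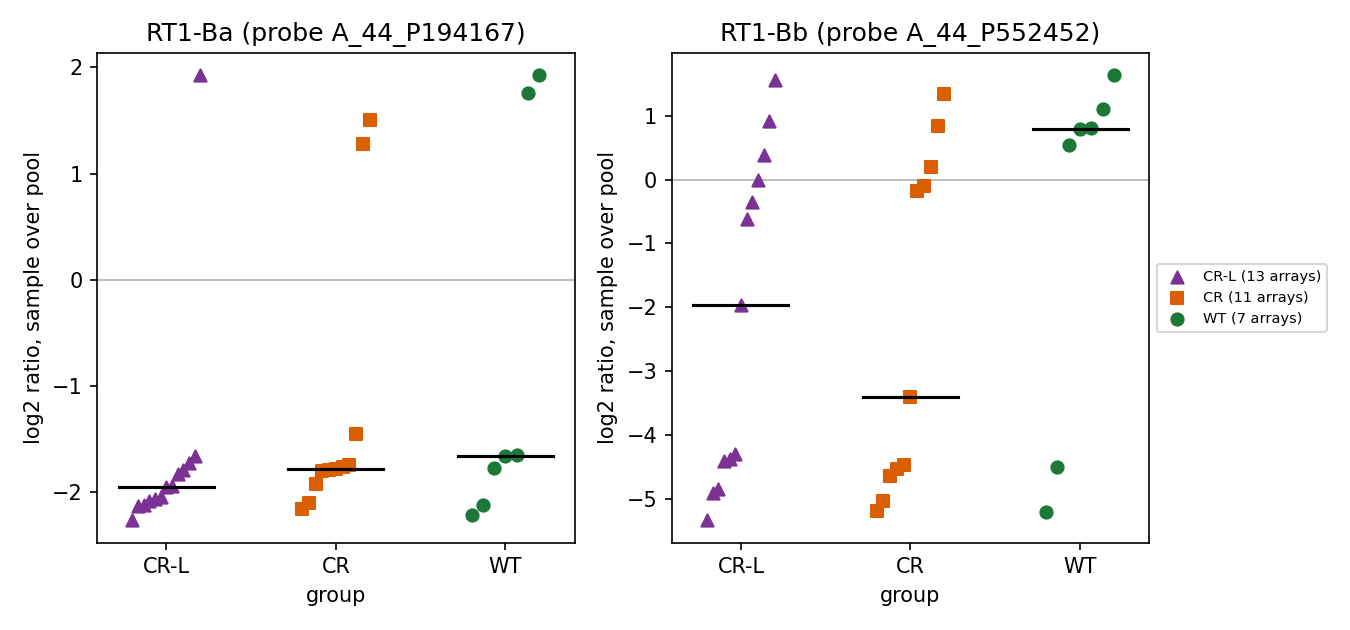
Log2 ratio of sample over pool for RT1-Ba (probe A_44_P194167, left) and RT1-Bb (probe A_44_P552452, right); each point is 1 array, groups run along the x axis, and the black line is the group median. On RT1-Ba 5 arrays lie above 1.2 and the other 26 below -1.4; on RT1-Bb 14 arrays lie at or below -3.40, CR-L replicate 11 is alone at -1.97, and 16 lie at -0.62 or higher.

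RT1-Bb, the beta chain that pairs with RT1-Ba, also had 2 probes on chromosome 20, both on the minus strand. A_44_P552452 (file interval chr20:4730533-4730583, rn4) was the brighter and stands for the gene in the tests, and A_44_P500803 lies at chr20:4732962-4733021. On A_44_P552452 the CR-L arrays ranged from -5.34 to 1.56 with a median of -1.97, the CR arrays from -5.19 to 1.33 with a median of -3.40, and the WT arrays from -5.21 to 1.63 with a median of 0.79. This was the widest span (6.97) and the largest standard deviation over arrays (2.66) of all 26716 probes, for which the median standard deviation was 0.148. The widest empty stretch lay between -3.40 and -1.97, with 7 of 13 CR-L, 5 of 11 CR and 5 of 7 WT arrays above it. The 14 arrays below it were CR-L replicates 1, 3, 7, 8, 9 and 12, CR replicates 5 to 10, and WT replicates 1 and 5. Red stayed well above background on all 31 arrays, at raw intensities of 522 to 79144, so low values were measured and not cut off.

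The ranges of the alpha and beta probes were nested. All 5 arrays in the upper range of RT1-Ba were also above the empty stretch of RT1-Bb, at 1.56 (CR-L replicate 4), -0.10 and 1.33 (CR replicates 1 and 2), and 0.54 and 1.63 (WT replicates 4 and 7). A further 12 arrays were above it on RT1-Bb and low on RT1-Ba, 14 were low on both, and 0 were high on RT1-Ba and low on RT1-Bb. By group, the arrays high on both numbered 1, 2 and 2 in CR-L, CR and WT, those high on RT1-Bb alone 6, 3 and 3, and those low on both 6, 6 and 2.

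The second RT1-Bb probe did not show these ranges. Its sequence and that of RT1-Db1 probe A_44_P139882 are given because the pair followed each other across arrays although they belong to different beta chains.
RT1-Bb A_44_P500803: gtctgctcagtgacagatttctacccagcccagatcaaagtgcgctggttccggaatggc
RT1-Db1 A_44_P139882: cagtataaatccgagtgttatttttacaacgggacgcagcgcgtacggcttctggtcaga
On A_44_P500803 the CR-L arrays ranged from -1.51 to 0.63 (median -0.18), the CR arrays from -1.14 to 0.58 (median 0.062) and the WT arrays from -1.05 to 0.38 (median 0.047). On A_44_P139882 (chr20:4677050-4677109, minus strand, rn4) the CR-L arrays ranged from -1.58 to 0.84 (median -0.077), the CR arrays from -1.45 to 0.80 (median 0.093) and the WT arrays from -1.58 to 0.72 (median -0.023). The groups overlapped almost completely on both probes. Over the 31 arrays the correlation of the 2 probes was r = 0.956 (Spearman 0.949), and 0.976 with slide means removed. By contrast A_44_P139882 followed the 2 other RT1-Db1 probes less closely (r = 0.385 with A_44_P130513 and 0.208 with A_44_P130516). The 4 lowest arrays on A_44_P139882 were CR-L replicate 5 (-1.58), WT replicate 7 (-1.58), CR replicate 2 (-1.45) and CR-L replicate 4 (-1.39), and 3 of them were in the upper range of RT1-Ba. The other 2 arrays of that range, CR replicate 1 and WT replicate 4, stood at -0.26 and 0.25.

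**Figure D2:**
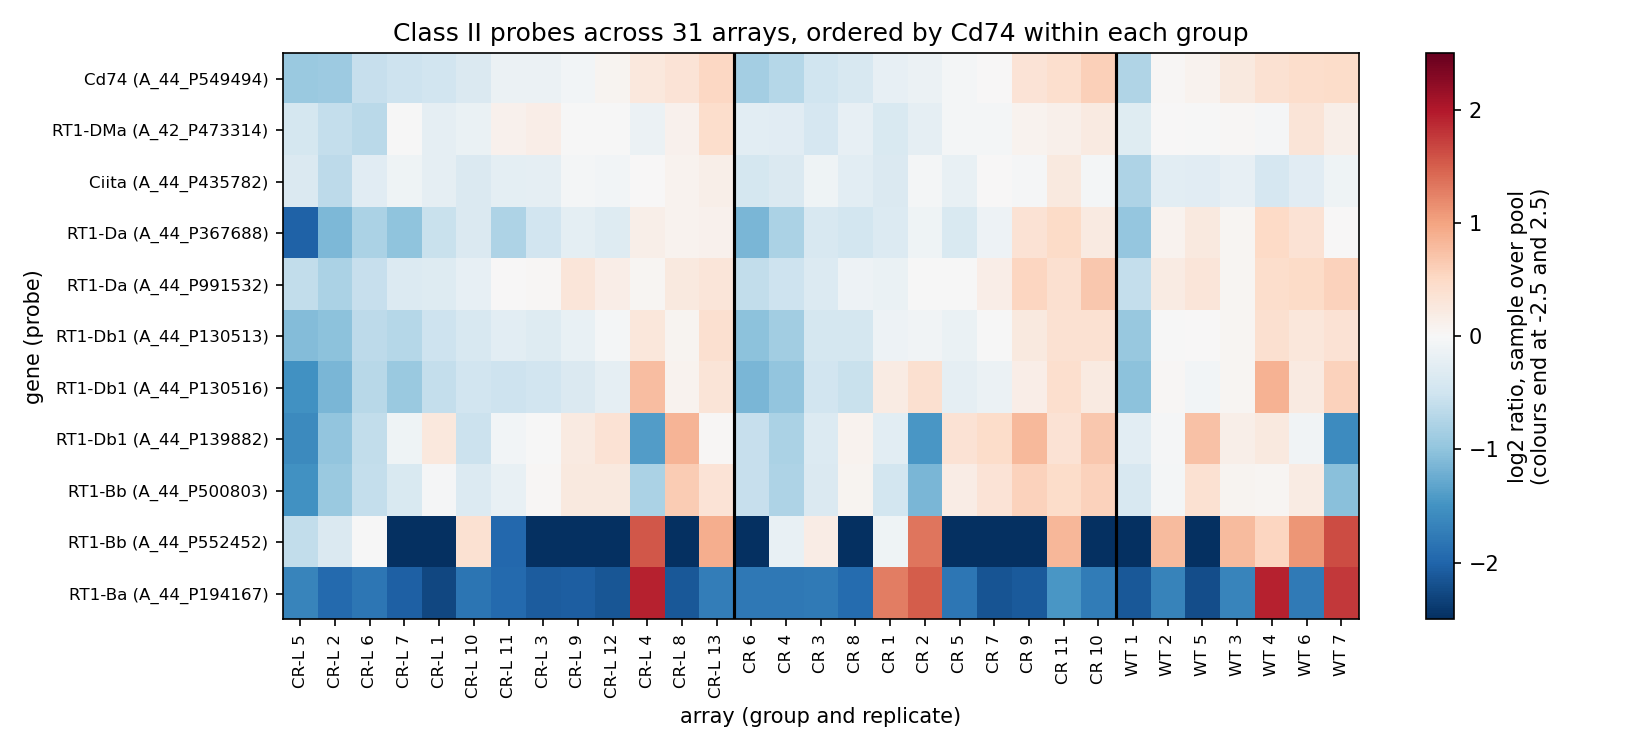
Log2 ratio of sample over pool (colour) for the 11 member probes that passed the filter (rows) on the 31 arrays (columns), with arrays ordered by Cd74 within CR-L, CR and WT from left to right; black lines part the groups and colours end at -2.5 and 2.5. Cd74, both RT1-Da probes and the first 2 RT1-Db1 probes turn from blue (low) to red (high) together along each group, while the bottom 2 rows change in jumps.

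The remaining members varied in steps of degree and together. Cd74, the invariant chain (probe at chr18:56765468-56765527, rn4), ranged from -0.93 to 0.51 in CR-L (median -0.15), from -0.86 to 0.59 in CR (median -0.14) and from -0.75 to 0.45 in WT (median 0.24). RT1-Db1, the D beta chain (probe A_44_P130513), ranged from -1.09 to 0.40 in CR-L (median -0.32), from -1.03 to 0.39 in CR (median -0.12) and from -0.94 to 0.40 in WT (median 0.057). RT1-Da, the D alpha chain (probe A_44_P991532), ranged from -0.79 to 0.30 in CR-L (median 0.0090), from -0.61 to 0.67 in CR (median -0.016) and from -0.60 to 0.58 in WT (median 0.30). For these 3 genes the groups overlapped over most of their span. CR-L replicates 2 and 5, CR replicates 4 and 6 and WT replicate 1 were among the 6 lowest on all 3, and CR-L replicate 13, CR replicates 9, 10 and 11 and WT replicates 4, 6 and 7 were among the 8 highest on all 3.

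The correlation of Cd74 with RT1-Db1 was r = 0.983 (Spearman 0.979) and with RT1-Da r = 0.955 (Spearman 0.952) over 31 arrays. Both held with slide means removed (0.975 and 0.940), with group means removed (0.983 and 0.952) and without the 2 arrays farthest from the median of RT1-Db1 or RT1-Da (0.979 and 0.945). The median correlation of Cd74 with all 22325 features was -0.026, and 4.6% of features exceeded 0.5. The values share the array and the pool, and are a description without a test. RT1-DMa, the alpha chain of the peptide loading pair, followed less closely (r = 0.812 with Cd74, and 0.661 with slide means removed). It ranged from -0.68 to 0.44 in CR-L (median -0.013), from -0.42 to 0.23 in CR (median -0.20) and from -0.31 to 0.32 in WT (median 0.015), so CR-L spanned more than either of the others.

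**Figure D3:**
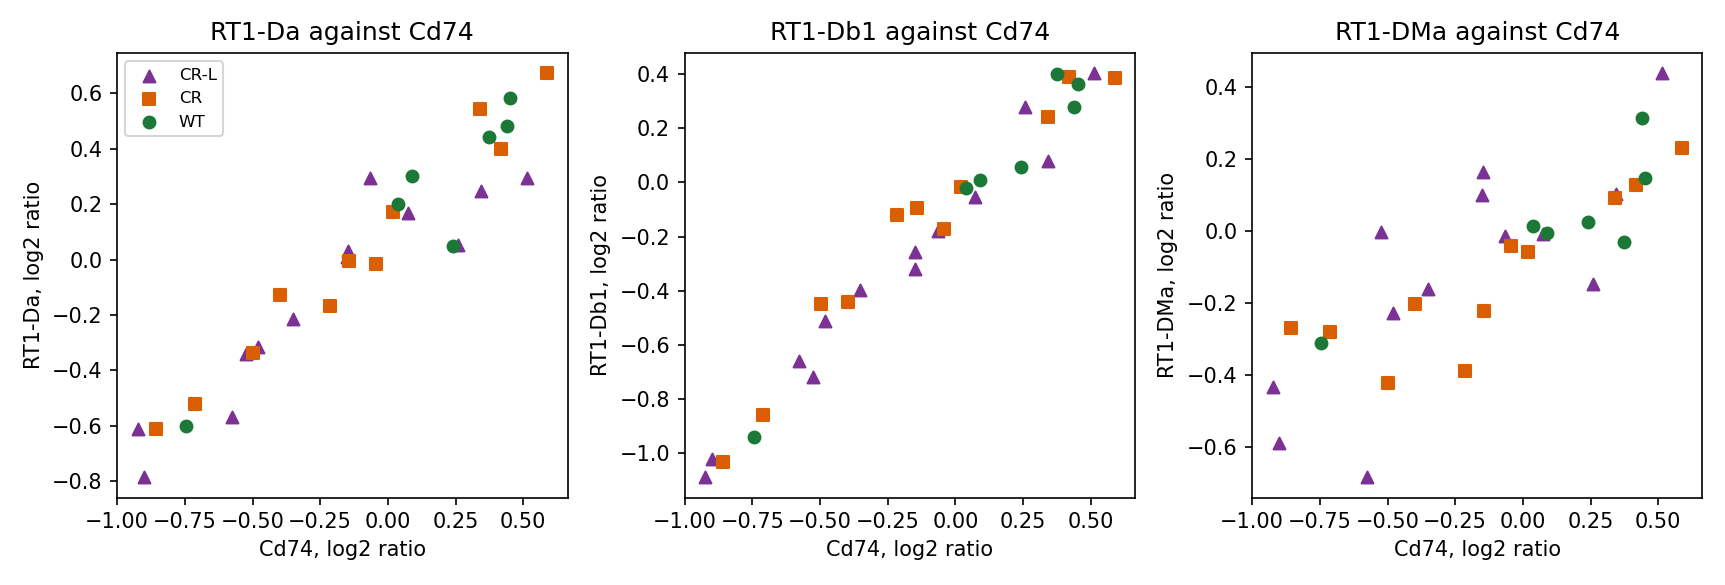
RT1-Da, RT1-Db1 and RT1-DMa (y axes) against Cd74 (x axes), each a log2 ratio of sample over pool; each point is 1 array, with CR-L, CR and WT marked by triangles, squares and circles. The points of RT1-Db1 lie closest to a line (r = 0.983), those of RT1-DMa spread most (r = 0.812), and the groups are intermixed.

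Ciita, the coactivator on which class II transcription depends (probe on chromosome 10, 5087172 to 5087231, rn4), had the smallest spread of the 7 genes, a standard deviation of 0.217 over arrays. Its probe was dim, with raw red intensities of 127.7 to 364.6, against 50161 to 132255 for Cd74. Whether the low signal narrowed its spread or weakened its correlations was not tested. It ranged from -0.66 to 0.15 in CR-L (median -0.22), from -0.43 to 0.24 in CR (median -0.098) and from -0.78 to -0.10 in WT (median -0.28). Every WT array was below 0 for Ciita, and the groups overlapped. Its correlation with Cd74 was r = 0.657 over all arrays, 0.835 with group means removed and 0.446 with slide means removed. Across the 10 pairs formed by RT1-Da, RT1-Db1, RT1-DMa, Cd74 and Ciita the median r was 0.775, with a lowest value of 0.567 for RT1-DMa with Ciita. With slide means removed the median of the 10 pairs was 0.604.

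The RT1-Ba and RT1-Bb probes with separate ranges were correlated with other single members only within those ranges. Within the 26 arrays of the lower RT1-Ba range its correlation was 0.090 with Cd74 and 0.12 with Ciita. Raw red intensity there was only 51.5 to 158.7, and near background on 5 arrays. These low correlations therefore cannot show whether RT1-Ba followed the other genes. The 5 arrays of the upper range are too few for a correlation. Within the 17 arrays above the empty stretch of RT1-Bb the correlation with Cd74 was 0.631 and with RT1-Da 0.577. Within the 14 arrays below it, the correlations were -0.19 and -0.17.

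Spread set the class II genes apart from most of the array. Of the 11 probes that passed the filter, 9 had a standard deviation over arrays above 0.368, the 95th percentile of all probes. The exceptions were RT1-DMa (0.256) and the dim probe of Ciita (0.217). The spread was within groups, since the standard deviation of Cd74 was 0.454 in CR-L, 0.464 in CR and 0.418 in WT. These genes were chosen with that variation known, so the ranks are given without a test.

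Against this spread, the comparisons between groups called none of the class II genes. Comparing CR-L with CR asks what leptin in suckling adds after restriction. By limma with Benjamini-Hochberg adjustment over all features and a threshold of 0.05, 0 of 7 members passed, and 0% of all 22325 features did. At an unadjusted p under 0.05 the counts were 0 of 7 members and 527 (2.36%) of all features. Cd74 averaged -0.23 ± 0.45 (SD, n = 13) in CR-L and -0.14 ± 0.46 (SD, n = 11) in CR, a difference of -0.089 ± 0.17 (SE). RT1-Db1 differed by -0.14 ± 0.18 and RT1-Da by -0.13 ± 0.15, each less than its standard error in size. The median of the 7 differences was -0.089, and that of all features -0.0033.

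Comparing CR with WT asks what restriction of the dam leaves in adult offspring. Again 0 of 7 members passed, where 0.649% of all features did (smallest adjusted p by limma 0.441). None of the 7 was under 0.05 unadjusted, where 12.3% of all features were, a share at which 7 genes say little. Cd74 averaged -0.14 ± 0.46 in CR (SD, n = 11) and 0.13 ± 0.42 in WT (SD, n = 7), a difference of -0.26 ± 0.20 (SE, limma adjusted p = 0.668). RT1-Da differed by -0.21 ± 0.18 and RT1-Db1 by -0.22 ± 0.21. Ciita was the 1 member above 0, at 0.19 ± 0.099, and 6 of 7 were below 0, as were 45.8% of all features. RT1-Bb, by probe A_44_P552452, had the difference of largest size, -1.60 ± 1.21, with a standard deviation of 2.66 in CR and 2.87 in WT. A mean over 2 ranges describes no single array, so this difference depends on how many arrays lay in each range. The other RT1-Bb probe, A_44_P500803, without such ranges, differed by 0.015 ± 0.26 (SE).

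Comparing CR-L with WT, 0 of 7 members passed, where 4.07% of all features did (smallest adjusted p by limma 0.310, for RT1-Da). RT1-Da averaged -0.13 ± 0.37 in CR-L (SD, n = 13) and 0.21 ± 0.40 in WT (SD, n = 7), a difference of -0.34 ± 0.17 (SE). The differences of RT1-Db1 (-0.36 ± 0.20, limma adjusted p = 0.373) and Cd74 (-0.35 ± 0.20, limma adjusted p = 0.375) were close to it in size. Ciita stood at 0.15 ± 0.096, again the 1 member above 0, and 46% of all features were below 0. The median of the 7 differences was -0.35 and that of all features 0.0095. With the replicate number of the titles as a block, RT1-Da alone passed (-0.60, limma adjusted p = 0.0458). The CR and CR-L comparisons with WT share the 7 WT arrays and are not independent of each other.

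Taken probe by probe, 0 of 11 member probes passed in any comparison, where 0% of all probes passed in CR-L against CR, 0.689% in CR against WT and 4.11% in CR-L against WT. The second RT1-Da probe, A_44_P367688 (chr20:4638704-4638763), had the lowest p of these. It ranged from -2.02 to 0.15 in CR-L (median -0.47), from -1.15 to 0.48 in CR (median -0.34) and from -0.98 to 0.50 in WT (median 0.085), and CR-L against WT differed by -0.60 ± 0.24 (SE; p = 0.0163 unadjusted, limma adjusted p = 0.163). On CR-L replicate 5 this probe read -2.02 where the other RT1-Da probe read -0.61. RT1-Db1 probe A_44_P130516 differed by -0.54 ± 0.26 (limma adjusted p = 0.266), while A_44_P139882 differed by -0.16 ± 0.31. For RT1-Bb in the same comparison, A_44_P552452 differed by -1.48 ± 1.17 and A_44_P500803 by -0.135 ± 0.25. The probes of one gene were thus not alike.

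**Figure D4:**
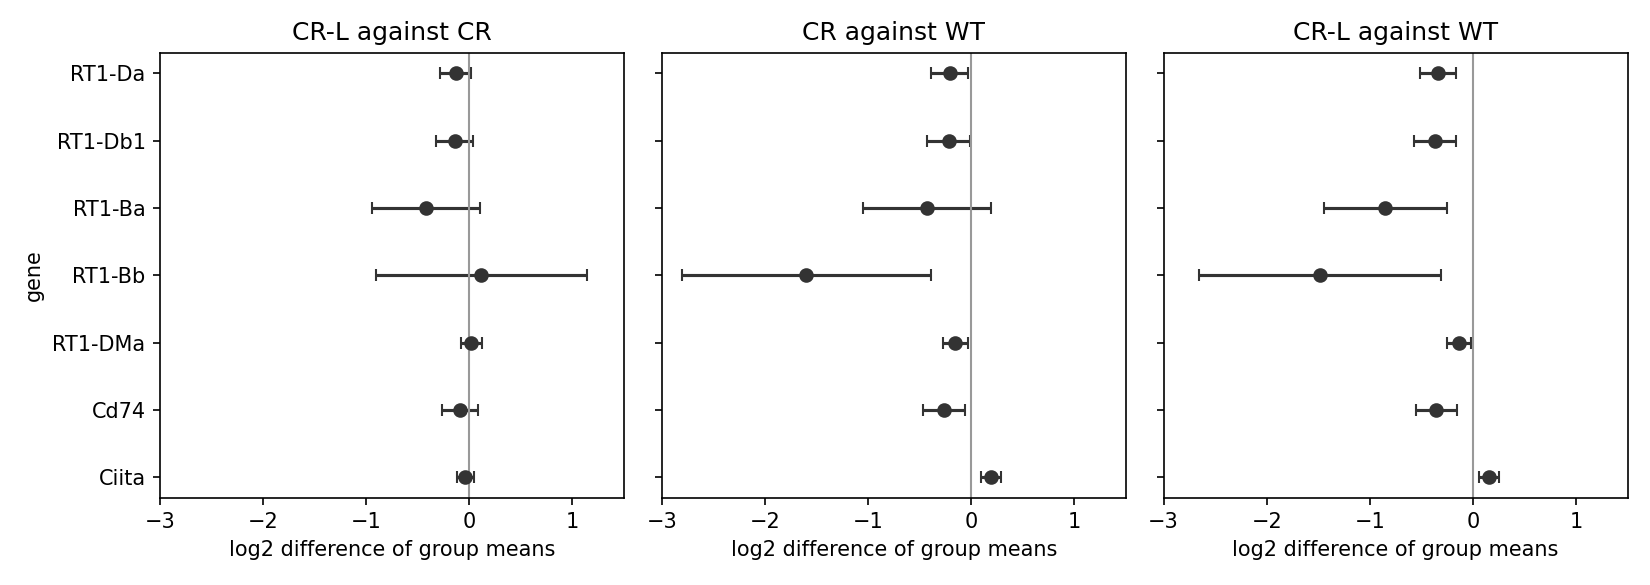
Difference between group means (x axes, log2) for the 7 members (y axis) in CR-L against CR, CR against WT and CR-L against WT; bars are the standard error from the fit. RT1-Ba and RT1-Bb have the widest bars, and in both comparisons with WT only Ciita lies above 0.

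Within slides the direction was mixed. The mean log2 ratio of RT1-Da, RT1-Db1, RT1-DMa and Cd74 was lower in CR-L than in CR on 5 of 8 slides, lower in CR than in WT on 5 of the 7 slides that held both, and lower in CR-L than in WT on 5 of 7. Ciita was lower in CR than in WT on 1 of 7 slides. WT replicate 1 had the lowest such mean of the WT arrays (-0.65), where the CR-L arrays ranged from -0.82 to 0.41 and the CR arrays from -0.69 to 0.47.

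The other class II genes on the array behaved like the members. RT1-DOa and RT1-DOb, the chains that restrain DM, and RT1-Db2, a second D beta gene, were the 3 of 7 listed that could be tested, and 0 of 3 passed in any comparison. Their differences in CR-L against WT were -0.42 ± 0.20, -0.50 ± 0.24 and -0.47 ± 0.22 (limma adjusted p = 0.264, 0.288 and 0.264). RT1-DOb (-0.34 ± 0.25) and RT1-DOa (-0.24 ± 0.21) had the smallest p in CR against WT, and RT1-Db2 (-0.25 ± 0.20) and RT1-DOa (-0.18 ± 0.17) in CR-L against CR. The correlations of RT1-DOa, RT1-DOb and RT1-Db2 with Cd74 over 31 arrays were 0.900, 0.775 and 0.916. Among 10 features most like the mean of the standardised RT1-Bb, RT1-Da, RT1-Db1, RT1-DMa and Cd74, Siglec10 (an inhibitory receptor of B cells, r = 0.933), Fcmr (the receptor for IgM, 0.927), Sh3bp5 (0.914), Bcar3 (0.913) and Ifi30 (the lysosomal thiol reductase of antigen processing, 0.910) led, followed by Vav2 (0.910), Ebf1 (a B cell transcription factor, 0.903), Fcrla (0.900), RT1-Db2 (0.900) and Bst1 (0.898). RT1-Bb entered this mean over all arrays, across its separate ranges. With RT1-Bb left out of the mean, 7 of the 10 remained.

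The genes that ordered the arrays most like RT1-Ba are named next. Likeness was the share of the 465 pairs of arrays that a gene put in the same order as RT1-Ba, with a median of 49.9% over 11598 named features. Of these pairs 325 lie within the lower range of RT1-Ba, where raw red intensity was 51.5 to 158.7 and near background on 5 arrays, so the measure mostly orders dim values of RT1-Ba. RT1-CE16 (75.7%), Rasgrf1 (74.6%), RT1-A3 (73.5%), RT1-CE3 (73.3%) and RT1-S3 (72.9%) were highest, and 4 of these 5 are MHC class I genes. Psmb8, an immunoproteasome subunit (22.6%), RT1-N1 (27.1%), Kgd4 (28.6%), Psma2 (29.2%) and Pomp (30.3%) most often gave the opposite order. Of the 10, 5 had a probe placed on chromosome 20, where the rat MHC lies, as did 2.99% of the named features. On RT1-CE16, the closest, the 5 arrays of the upper RT1-Ba range lay between 0.18 and 1.05 and the other 26 between -1.25 and 0.71, so the values overlapped.

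**Figure D5:**
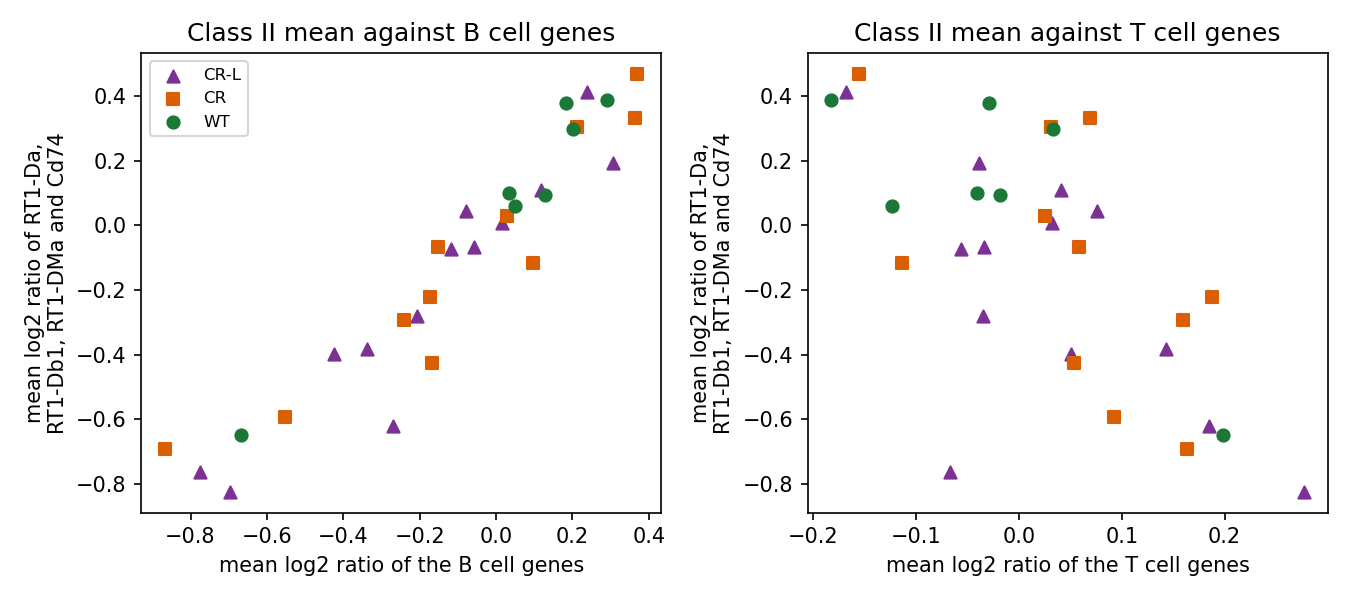
Mean log2 ratio of RT1-Da, RT1-Db1, RT1-DMa and Cd74 (y axes) against the mean log2 ratio of 15 B cell genes (left) and 14 T cell genes (right); each point is 1 array, with CR-L, CR and WT marked by triangles, squares and circles. The class II mean climbs with the B cell mean (r = 0.949) and descends with the T cell mean (r = -0.65), with the groups intermixed.

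B cell genes moved with the class II genes across animals. Of 18 listed B cell markers 15 could be tested, and all 15 correlated with Cd74 above 0.5, with a median of 0.867 and a highest value of 0.936 for Fcrla; Cd79a, Pax5 and Spib had no named probe. The mean of the 15 ranged from -0.78 to 0.31 in CR-L, from -0.87 to 0.37 in CR and from -0.67 to 0.29 in WT. Its correlation with the class II mean was 0.949 over 31 arrays, and 0.921 with slide means removed. No B cell marker passed in any comparison. In CR-L against WT 13 of 15 were below 0 (median -0.24), as were 46% of all features. The part of B cell content in the class II values was not tested. The mean of the T cell genes went the other way, with a correlation of -0.65 with the class II mean, and that of NK genes did too (-0.48). Single T cell genes correlated with Cd74 from -0.822 to 0.148 (Cd4), with a median of -0.455, so not all went the other way. The correlation with the class II mean was 0.24 for monocyte genes (0.0070 without the 2 arrays farthest from the median) and 0.49 for dendritic cell genes (0.31 without such arrays). It was 0.52 for erythroid genes (0.38 without them), 0.12 for granulocyte genes and -0.090 for platelet genes. Of 12 listed dendritic cell genes 6 could be tested, and they were not alike. Their correlations with Cd74 were 0.652 (Irf8), 0.548 (Tcf4), 0.205 (Ccr7), 0.091 (Clec10a), 0.036 (Flt3) and -0.189 (Batf3). The part of these cell types in the class II values was not tested either, and no gene of these lists passed in any comparison.

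Genes around class II were counted from lists chosen with earlier results of these data known. Of 25 regulators, which bind class II promoters or relay interferon gamma, 24 could be tested. Creb1, a factor that binds the X2 box, rose in CR (0.19 ± 0.14 in CR and -0.043 ± 0.12 in WT; 0.23 ± 0.057, limma adjusted p = 0.0486) and in CR-L (0.20 ± 0.084 in CR-L; 0.25 ± 0.055, limma adjusted p = 0.00795). It was the 1 of 24 regulators past the threshold in either comparison, where 0.649% of all features passed in CR against WT and 4.07% in CR-L against WT, and a share of 1 in 24 is close to the second. No regulator passed in CR-L against CR, where Jak1, a kinase of interferon signalling, differed by 0.17 ± 0.10. The other 3 Creb1 probes differed by 0.050, 0.052 and 0.19 in CR-L against WT and none passed, and leaving out any of 24 of the 31 arrays ended the call in CR against WT. Rfx5, a subunit of the factor that binds the X box, differed by -0.16 ± 0.080 in CR against WT, and no Rfx gene passed.

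Of 19 genes of class II processing and turnover, all tested, 0 passed in any comparison. The lysosomal protease Ctsl had the smallest p in CR-L against WT (-0.30 ± 0.10, limma adjusted p = 0.105), followed by the lysosomal membrane protein Lamp2 (0.18 ± 0.10). In CR against WT the smallest p were those of Ap1s1, an adaptor subunit of vesicle sorting (0.14 ± 0.058), and Cstb, a cathepsin inhibitor (-0.17 ± 0.084), and in CR-L against CR those of the protease Ctsb (0.24 ± 0.13) and Ap1s1 (-0.088 ± 0.049). Ifi30 followed Cd74 across arrays (r = 0.904), and Ctss, the protease that trims the invariant chain, less so (0.509). Of 22 class I and loading genes 19 were tested and 0 passed in any comparison. In CR-L against WT 13 of the 19 were above 0, while 6 of the 7 class II genes were below 0, as were 46% of all features. The smallest p were those of the class I gene RT1-A2 (0.27 ± 0.13) and the immunoproteasome subunit Psmb10 (0.084 ± 0.056) in CR-L against WT, of RT1-N3 (0.21 ± 0.12) and RT1-A2 (0.23 ± 0.14) in CR against WT, and of Psmb10 (0.091 ± 0.049) and the peptide transporter Tap1 (-0.089 ± 0.069) in CR-L against CR. The correlation of their mean with the class II mean was -0.023.

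Of 10 costimulatory and adhesion genes 6 were tested, and 2 fell in CR-L against WT, where 4.07% of all features passed in either direction. Cd86, a ligand of CD28, and Cd40 had the smallest p in CR-L against CR (0.11 ± 0.12 and -0.15 ± 0.19) and did not pass. Icam1, an adhesion molecule of the contact with T cells, ranged from -0.93 to 0.17 in CR-L (median -0.15), from -0.64 to 0.26 in CR (median -0.22) and from 0.15 to 0.77 in WT (median 0.28). The lowest WT array lay just below the highest CR-L array, and CR-L against WT differed by -0.56 ± 0.13 (limma adjusted p = 0.00981). Cd274, the checkpoint ligand PD-L1, averaged 0.0030 ± 0.24 in CR-L and 0.34 ± 0.22 in WT and fell by 0.34 ± 0.093 (limma adjusted p = 0.0304), a call that ended without CR-L replicate 12 or any of WT replicates 2, 4, 5, 6 and 7 (limma adjusted p 0.0514 to 0.0890). Neither gene passed in CR against WT (Icam1 -0.53 ± 0.13, limma adjusted p = 0.0560; Cd274 -0.31 ± 0.096, limma adjusted p = 0.123). Cd40, a B cell and monocyte receptor for T cell help, followed Cd74 across arrays (r = 0.864) and did not pass (-0.36 ± 0.21 in CR-L against WT).

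The promoters of the class II genes are shown because most of these genes moved together across animals. RefSeq promoter sequences of build GRCr8, from 250 bases before to 50 after the start, were at hand for 6 of the 8 members. TGATTGG, the Y box bound by NF-Y, was searched on both strands with overlaps allowed, and GCAAC, the core of the X box bound by the RFX factors, was searched on the same strand starting 11 to 40 bases before a Y box. Capitals mark both.
RT1-Da: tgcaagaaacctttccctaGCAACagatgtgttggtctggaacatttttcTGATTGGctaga
RT1-Db1: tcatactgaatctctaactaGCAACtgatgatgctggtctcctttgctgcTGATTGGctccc
RT1-Ba: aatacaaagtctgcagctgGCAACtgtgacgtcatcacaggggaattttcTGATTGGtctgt
RT1-Bb: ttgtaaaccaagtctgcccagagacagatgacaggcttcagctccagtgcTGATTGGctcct
RT1-DMa: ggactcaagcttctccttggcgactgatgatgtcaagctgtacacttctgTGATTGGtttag
In GRCr8 these are chr20:4515314-4515375 (plus strand), chr20:4560233-4560294 (minus), chr20:4576962-4577023 (plus), chr20:4604170-4604231 (minus) and chr20:4712390-4712451 (minus), in the order shown. The Y box was present in 5 of 6 member promoters, all on the sense strand and starting 45 to 82 bases before the gene's start, and in 7.06% of all 33469 promoters. It was not found in this window of Cd74. The X box core lay 30 or 31 bases before the Y box in RT1-Da, RT1-Db1 and RT1-Ba, counted between starts. At any spacing of 11 to 40 bases, 0.176% of all promoters held the pair. RT1-DOa, RT1-DOb and RT1-Db2 held it too, at 31, 28 and 29 bases. RT1-Ba and RT1-Bb, for which a single probe each (A_44_P194167 and A_44_P552452) varied in jumps, held the Y box. So did RT1-Da, RT1-Db1 and RT1-DMa, which varied by degree. The other RT1-Bb probe did not vary in jumps. A match of letters is a description and not a site in use.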

How the data were processed

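RNA of rat PBMC was measured on 31 two-colour Agilent arrays, samples in red (Cy5) and 1 pool in green (Cy3) with no dye swap, per the labels. The authors deposited spot and local background intensity and a log10 ratio made with Agilent Feature Extraction, whose version the submitters' processing notes give as 10.7.3.1, and a series table of log2 values, which followed log2 red intensity (lowest correlation 0.993), has a common column median of 8.17 and otherwise unknown steps; its direction is that of the red channel. Samples were grouped by title.

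Intensities were corrected with normexp (offset 50) and loess within arrays in limma 3.58.1 (R 4.3.3). Some spots had a local background so high that it distorted normexp's fit on 4 arrays. Where it was over 5 times the array's median, the median was used (205 red and 43 green spots on 19 arrays), a step chosen after seeing the data; without it is an alternative. Controls (1639 of 45018 spots) and outlier spots were left out. A probe was kept if its red signal stood well above background on 7 or more arrays (26716 probes). The brightest probe stood for each symbol, and each probe without a symbol stood for itself (22325 features, 0.0329% missing). Symbols were updated through a GRCr8 table; probe positions are rn4.

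Groups were compared with limma (lmFit, eBayes) over all 31 arrays, two-sided, with Benjamini-Hochberg adjustment over all features or all probes and a threshold of 0.05; nothing says that replicates are other than separate animals. The fit was also run on simulated data with independent noise for each feature. It recovered 43.3% to 56.7% of true log2 differences of 0.25, and 89.6% to 92.5% of those of 0.5. The simulation held no shared dams, slide effects or separate ranges, so it cannot speak for these. The members, the lists of related genes and the cell type markers were chosen with earlier results of these data known. Named genes were all members and, from each list of related genes (not of cell type markers), in each comparison, up to 4 past the threshold or else the 2 with the smallest p (1 gene that this rule names is not reported here), while Rfx5, Ctss, Ifi30, the third of the other class II genes and the cell type markers named were singled out from the lists after their values were seen; the 5 most and 5 least like RT1-Ba and the 10 most like the other members were named. Alternatives were other background, channel, filter, probe and block choices and leaving out each array. The number of arrays limits precision. RT1-DMb was not analysed here for want of a probe.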

Additional observations from a re-analysis of the deposited data

Results flagged for a closer look

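In the WT group of 7 arrays, 4 of the 11 member probes had 1 array far from the rest by Dixon's ratio at the 95% level. Chance marks about 1 in 20 such groups, but the probes correlate, so their flags are not separate events and cannot be counted against that rate. The CR-L and CR groups are too large for this check. WT replicate 1 stood low on 3 of the 4 probes, whose correlations with each other over 31 arrays were 0.901 to 0.983. It read -0.98 on RT1-Da probe A_44_P367688 where the other WT arrays lay between 0.017 and 0.50, -0.94 on RT1-Db1 probe A_44_P130513 (others -0.019 to 0.40) and -0.75 on Cd74 (others 0.039 to 0.45). WT replicate 7 read -1.58 on RT1-Db1 probe A_44_P139882, with the others between -0.26 and 0.72.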

How the results depend on the processing

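The counts of 0 members past the threshold held under every alternative but 1: with the replicate block, 1 member (RT1-Da) passed in CR-L against WT (-0.60, limma adjusted p = 0.0458). Nothing in the labels says that the replicate numbers pair the samples, and correlations between arrays cannot decide it. With group means removed, 8 of 21 same-numbered pairs correlated above 0.1. Their median was 0.042, and that of other pairs between groups was -0.005. Of 21 arrays 3 correlated best with their own number. Of 879 recomputed member differences 855 kept direction and side of the threshold, and 23 changed sign, all of them within 0.2 of 0. In CR-L against CR these were RT1-DMa with the red channel alone (-0.019) and with the replicate block (-0.041), Ciita with the red channel alone (0.01), and RT1-Bb with slide as a block (-0.15) and as the mean of its probes (-0.017). With each array left out in turn, that comparison gave -0.20 to 0.48 for RT1-Bb, -0.027 to 0.066 for RT1-DMa and -0.068 to 0 for Ciita, and CR against WT gave -0.70 to 0.031 for RT1-Ba (above 0 without WT replicate 4 or 7).

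The median correlation of the 10 member pairs (0.775) was 0.701 in the authors' series table and 0.604 with slide means removed, and 0.747 to 0.802 with an array left out; the cause was not tested. The 5 arrays of the upper RT1-Ba range were the same under all 5 other settings, with an empty stretch of 1.27 to 3.98. RT1-Ba dropped out where red had to be well above background on all 31 arrays.

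The count of all features past the threshold in CR against WT (145) was 65 with Feature Extraction ratios, 30 with the red channel, 0 in the series table, 69 with slide as a block, 253 with the replicate block and 78 unfiltered, and from 21 (without WT replicate 4) to 250 (without CR replicate 9). In CR-L against WT (909) it was 498 in the series table and 496 without WT replicate 4. Creb1 lost its call in CR against WT under 6 settings (limma adjusted p 0.0543 to 0.361) and in CR-L against WT as a mean of its probes (0.129), and Cd274 in the series table (0.0829).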
